A study of Mus musculus with 4 samples.

Results

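Tropomyosins, calponins and transgelins are proteins that lie along actin filaments, and their 4 tropomyosin genes (Tpm1, Tpm2, Tpm3 and Tpm4), non-muscle calponin genes (Cnn2 and Cnn3) and non-muscle transgelin genes (Tagln2 and Tagln3) are described here in mouse neural progenitor cells (NPCs). The 8 genes were chosen by name, with earlier results of these data known, and all 8 were found among the 21862 genes that each library listed once. RNA was sequenced from N31 NPCs (control) and from N31 NPCs expressing shSrf#1, a short hairpin RNA against serum response factor (shSrf), each on a type I collagen-coated matrix with a stiffness of 0.5 kPa or 12 kPa. Each of these 4 conditions was 1 library, so the differences below come without replicates and without p-values. N31 is a single NPC line, made by differentiating iPSCs in vitro, and all 4 libraries share its Dox-inducible OKMS reprogramming factors, its CAG-driven rtTA and a medium without EGF and bFGF. The short hairpin was delivered by a retrovirus and selected with puromycin. Whether control cells carried an empty vector is not given in the sources used here.

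Tropomyosin dimers polymerize end to end along actin filaments, stiffen them and decide which myosins and severing proteins can reach them, and alternative promoters and exons let each gene make several isoforms. Tpm1, Tpm2 and Tpm3 also give the striated or smooth muscle forms, whereas Tpm4 is mainly cytoskeletal. Calponins bind actin, and calponin and transgelin share a calponin homology domain. Cnn1 and Tagln (SM22) are the smooth muscle paralogs, Cnn2 and Cnn3 occur in many cells, Tagln2 is found in many non-muscle cells, and Tagln3 is best known in neurons. Srf is a transcription factor that binds the CArG box, and its cofactor Mkl1 is held inactive by actin monomers, so that actin polymerization and a stiff matrix are known inputs to cytoskeletal Srf targets. The comparisons below ask which paralogs of a family differ with Srf knockdown and with stiffness, and by how much.

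The deposited unit is FPKM, the number of reads scaled to transcript length and to the mapped reads of the library, so levels of different genes can be compared per length. There is 1 value for each gene, summed over its isoforms, so the muscle and non-muscle isoforms of a tropomyosin gene cannot be told apart. The libraries held an estimated 24100000 to 62300000 reads. The targeted gene Srf was at 34.4 and 35.6 FPKM in control NPCs on 0.5 and 12 kPa and at 16.2 and 17.4 FPKM in shSrf NPCs. Of 12 neural progenitor markers, 5 exceeded 2 FPKM in every library. Vim led with 1481 to 2396 FPKM, Nes and Slc1a3 were lower in shSrf than in control NPCs (log2 ratios of -1.65 and -1.47 at 0.5 kPa), and Sox2, also a reprogramming transgene here, and Pax6 were higher (2.15 and 1.31). Sox1, Hes5 and Olig2 were listed at 0 in all 4 libraries and Fabp7 at 0 in both control libraries. Fibroblast markers (7 of 8 above that minimum in every library) summed to between 2534 and 2746 FPKM, mostly from the collagens Col3a1 and Col1a2, and 9 skeletal and cardiac muscle markers summed to at most 1.07 FPKM. The word NPC is therefore used as the label gives it.

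Upstream sequences are shown first because Srf acts through the CArG box, a 10-base palindrome, so that 1 strand covers both. RefSeq promoter windows (GRCm38.p6, the mm10 build of the files) run from 250 bases before to 50 bases after a start site. They were found for all 8 genes and for Cnn1, with 2 windows for Tpm3, but not for Tagln, which was not searched. An exact CArG box occurred in 1.63% of 32851 such windows, and among these genes only the window of Cnn2 held one. The upstream 250 bases of Cnn2 (chr10:79988350-79988599, plus strand) hold it at -56 to -47 from the start, in capitals. Those of Tagln2 (chr1:172499996-172500245, plus strand) hold no CArG box and, in capitals, 2 copies of CATTCC, the reverse complement of the TEAD motif GGAATG, at -118 to -113 and at -80 to -75. The TEAD motif, searched on both strands, occurred in 14.7% of all windows.
Cnn2: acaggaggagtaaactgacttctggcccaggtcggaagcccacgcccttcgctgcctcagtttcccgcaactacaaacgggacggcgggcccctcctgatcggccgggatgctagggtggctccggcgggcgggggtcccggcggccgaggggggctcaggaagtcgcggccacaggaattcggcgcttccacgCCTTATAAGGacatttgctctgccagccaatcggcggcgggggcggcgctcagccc
Tagln2: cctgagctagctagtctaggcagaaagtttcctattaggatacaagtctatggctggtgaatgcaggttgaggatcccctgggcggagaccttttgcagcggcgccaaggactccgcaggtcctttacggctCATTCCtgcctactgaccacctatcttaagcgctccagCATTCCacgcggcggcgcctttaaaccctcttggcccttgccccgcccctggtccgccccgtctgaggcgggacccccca

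CArG boxes with 1 mismatch, which occurred in 19.9% of all windows, were found for Tpm1 and Tpm3. They are printed because these are the tropomyosins that part most with stiffness below, a choice made from the same data. Whether these matches have a part in that difference was not tested. Tpm1 had 1 at -221 to -212 and 1 at -80 to -71, the second followed by GGAATG at -56 to -51. In the second Tpm3 window, at an internal start site, there was 1 at -162 to -153 and 1 at -57 to -48, and the first Tpm3 window held 1 at -66 to -57. The capitals mark the motifs in stretches of 30 bases each, at chr9:67049415-67049444 and chr9:67049264-67049293 (minus strand) for Tpm1 and at chr3:90079349-90079378 and chr3:90079454-90079483 (plus strand) for Tpm3. These starts lie inside the range listed for each gene. None of the 3 motifs was in the windows of Tpm2, Tpm4, Cnn3, Tagln3 or Cnn1, which says nothing about sites farther away. A match is a description of the letters and not a bound site.
Tpm1, far: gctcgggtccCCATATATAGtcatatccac
Tpm1, near: CCAAAAAAGTattggctgtcctaaGGAATG
Tpm3, far: cacgacagcaCCATTTTAGTaaatgggaca
Tpm3, near: aaccccgcccCCTTTACTGGactaaggaaa

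The tropomyosins and calponins were among the most abundant messages of these cells. In control NPCs on 0.5 kPa, 6 of the 8 genes lay between 408 and 1044 FPKM, and the median was 21.9 FPKM over the 10489 genes that exceeded the minimum of 2 FPKM in every library. Tpm1 led in every library and ranked 64th of all genes in control NPCs on 0.5 kPa and 160th in shSrf NPCs on 0.5 kPa. In both control libraries the order by FPKM was Tpm1, Cnn3, Tpm4, Cnn2, Tpm3, Tpm2, Tagln2 and Tagln3. In shSrf NPCs Tpm3 had passed Cnn2 and Tpm4 in both libraries, and on 0.5 kPa also Cnn3. Neighbours in the order were close in places: Tpm3 and Tpm2 had 436 and 419 FPKM in control NPCs on 12 kPa, and Cnn3 and Tpm3 had 460 and 448 FPKM in shSrf NPCs on 12 kPa. With 1 library a condition, whether such neighbours differ beyond the spread of cultures could not be tested. Tagln3 stood apart at the low end, at 4.03 FPKM or less.

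**Figure D1:**
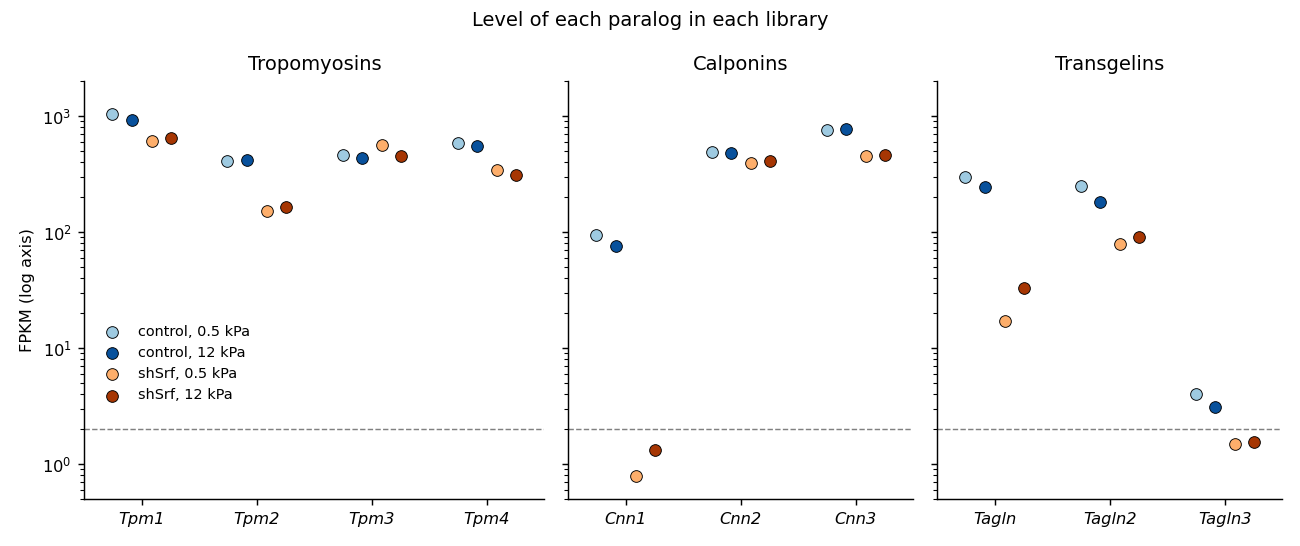
FPKM (log axis) of each tropomyosin, calponin and transgelin gene, with 1 point for each of the 4 libraries and a dashed line at the minimum FPKM of 2. Tpm3 is the only tropomyosin whose shSrf points are not below the control point of the same stiffness, and Cnn1 and Tagln3 are the genes whose shSrf points fall below the line.

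Srf knockdown went with lower levels of most, but not all, of these genes. Of the 8, 7 exceeded 2 FPKM in every library and entered the counts, and Tagln3 did not because of its shSrf libraries. At 0.5 kPa, 5 of the 7 were lower in shSrf than in control NPCs by more than 1.5-fold (Tpm1, Tpm2, Tpm4, Cnn3 and Tagln2), where 9.28% of the 10489 genes were lower and 9.19% higher by as much. At 12 kPa, 4 of the 7 were lower (the same genes without Tpm1), against 8.88% of all genes lower and 10.2% higher. Those 4 were lower at both stiffnesses, as were 6.17% of all genes, and none of the 7 was higher past 1.5-fold at either. All 7 belong to the 2622 genes of highest mean FPKM (from 49.5 upwards), and among these the share of genes lower past 1.5-fold was 5.61% at 0.5 kPa and 5.91% at 12 kPa. The median log2 ratio of shSrf to control over the 7 genes was -0.78 and -0.74, beside 0.0106 and 0.00981 over all genes. Because the genes were chosen with earlier results of these data known, the counts and medians describe the list and test nothing. In bulk RNA, fewer cells expressing a gene and less RNA per cell cannot be told apart.

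**Figure D2:**
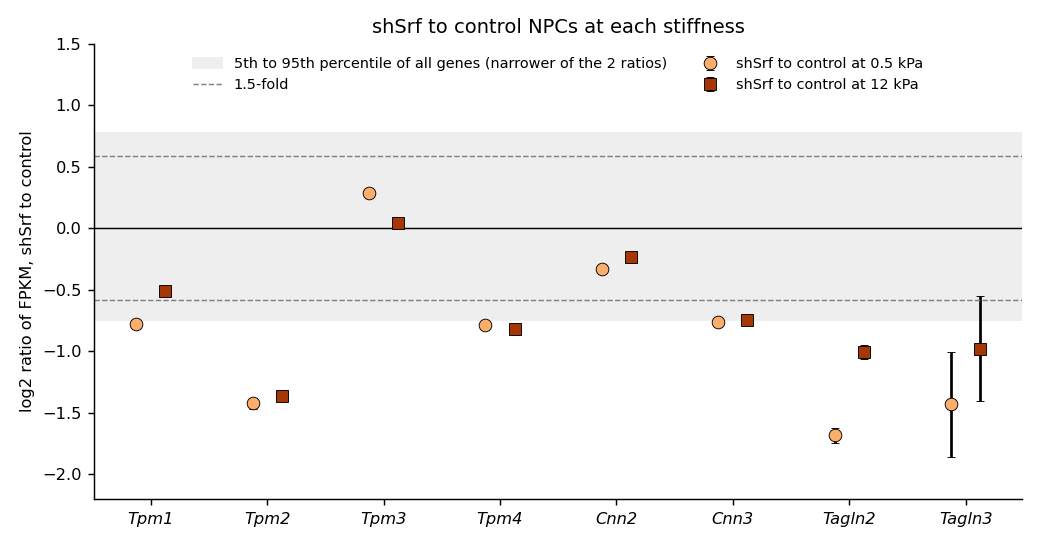
The log2 ratio of FPKM in shSrf to control NPCs at 0.5 kPa (circles) and 12 kPa (squares) for each gene, with bars for the 95% counting interval, which is mostly smaller than the symbol, dashed lines at 1.5-fold and a band from the 5th to the 95th percentile of all genes. The band takes the narrower limit of the 2 ratios on each side. Its lower edge is the 5th percentile at 12 kPa (-0.744), and that at 0.5 kPa was -0.787. Tpm2, Tagln2 and Tagln3 lie lowest, between -0.98 and -1.68, and Tpm3 lies at 0.29 and 0.04.

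Among the tropomyosins, Tpm2 was the most reduced. Tpm2, on chromosome 4 of mm10 from 43513726 to 43523583, encodes beta-tropomyosin of muscle and stress fibres. Its FPKM was 408 and 419 in control NPCs on 0.5 and 12 kPa and 152 and 163 in shSrf NPCs. Both shSrf libraries were thus far below both control libraries, and the log2 ratio was -1.42 on the soft and -1.36 on the stiff matrix. Counting error alone gives 0.04 around either value (95% half-width, from estimated reads). About 1% of all genes had a ratio as low, as Tpm2 stood at the 1.06th percentile at 0.5 kPa and the 0.963th at 12 kPa.

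Tpm4, on chromosome 8 from 72135288 to 72153142, encodes a short tropomyosin of stress fibres and other cytoskeletal filaments. Its FPKM was 587 and 551 in control and 341 and 313 in shSrf NPCs on 0.5 and 12 kPa. The reduction was alike at both stiffnesses, with log2 ratios of -0.79 and -0.82. Tpm1, on chromosome 9 from 67022590 to 67049672, encodes alpha-tropomyosin and many non-muscle isoforms, and 16 coding transcripts are annotated for it. Its FPKM was 1044 and 922 in control and 608 and 647 in shSrf NPCs. The ratio of Tpm1 was -0.78 at 0.5 kPa and -0.51 at 12 kPa on the log2 scale, so that only the former was past 1.5-fold. The control library on 0.5 kPa was the highest of the 4 and the shSrf library on 0.5 kPa the lowest.

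Tpm3 differed from its paralogs. Tpm3, on chromosome 3 from 90072651 to 90100902, encodes the cytoskeletal Tpm3.1 and related isoforms and the slow muscle form. Its FPKM was 463 and 436 in control and 565 and 448 in shSrf NPCs on 0.5 and 12 kPa. The highest value was that of shSrf NPCs on 0.5 kPa, and the other 3 libraries lay close together. The log2 ratio to control was 0.29 at 0.5 kPa and 0.04 at 12 kPa, inside 1.5-fold at both.

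Set against each other within a library pair, where any scaling of a library cancels, the log2 ratio of Tpm3 exceeded that of Tpm2 by 1.71 at 0.5 kPa and 1.40 at 12 kPa, with counting half-widths of 0.05. It exceeded that of Tpm4 by 1.07 and 0.86, and that of Tpm1 by 1.07 and 0.55. Tpm1 and Tpm4 differed by 0.01 at 0.5 kPa, less than the counting half-width of 0.03, and by 0.31 at 12 kPa. By this ratio Tpm2 was the lowest tropomyosin and Tpm3 the highest at both stiffnesses, with Tpm1 and Tpm4 between them.

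The make-up of the tropomyosin pool shifted accordingly. The summed FPKM of the 4 genes was 2503 and 2328 in control and 1666 and 1571 in shSrf NPCs on 0.5 and 12 kPa, so that shSrf NPCs held 66.6% and 67.5% of the control sum. Tpm3 made up 18.5% and 18.7% of the pool in control and 33.9% and 28.5% in shSrf NPCs. Tpm2 went the other way, from 16.3% and 18.0% to 9.13% and 10.4%. Tpm1 remained the main paralog, at 36.5% to 41.7% in all 4 libraries, and Tpm4 held 19.9% to 23.7%. Counting error gave at most 0.338 percentage points on a tropomyosin share. The pool moved little with stiffness, as the 12 kPa sum was 93.0% of the 0.5 kPa sum in control and 94.3% in shSrf NPCs.

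**Figure D3:**
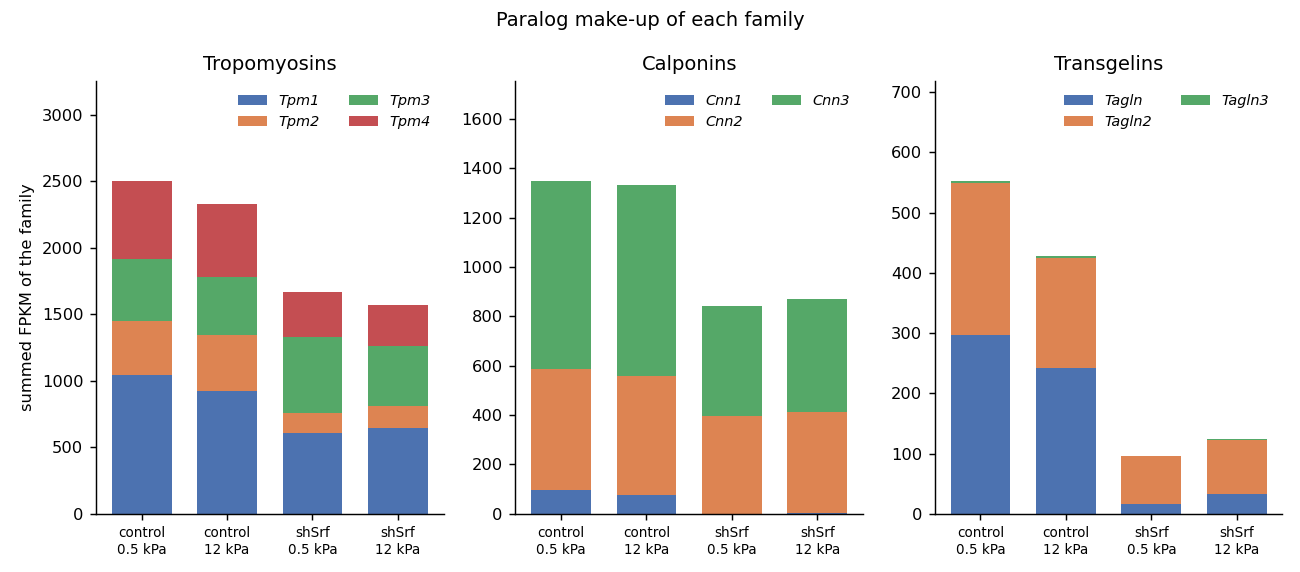
Summed FPKM of each family in each of the 4 libraries (1 bar a library, axes from 0 with a scale of their own for each family), split by paralog. At each stiffness the green Tpm3 segment is no smaller in shSrf than in control bars while the orange Tpm2 segment shrinks, the calponin sum is mostly Cnn2 and Cnn3 in every library, and the transgelin sum in shSrf bars is mostly Tagln2.

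Tpm3 has a related gene copy, Tpm3-rs7, on chromosome 14 from 113314601 to 113316720, with which it can share reads. It was listed at 0.252 to 0.391 FPKM, or an estimated 14 to 32 reads. The authors kept reads of high mapping quality, and how many Tpm3 reads this removed was not tested.

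The non-muscle calponins differed less between shSrf and control NPCs than the smooth muscle paralog did, and their ratios differed from each other. Cnn3 (acidic calponin), on chromosome 3 from 121426541 to 121458205, measured 760 and 770 FPKM in control and 448 and 460 in shSrf NPCs on 0.5 and 12 kPa. Its log2 ratio was -0.76 and -0.74, past 1.5-fold at both stiffnesses. Cnn2, on chromosome 10 from 79988600 to 79995400, encodes the calponin of many non-muscle and smooth muscle cells. It measured 493 and 484 FPKM in control and 393 and 410 in shSrf NPCs. Both shSrf libraries were below both control libraries, but the log2 ratios of -0.33 and -0.24 were inside 1.5-fold, and 21.2% and 28.0% of all genes lay lower. The ratio of Cnn2 exceeded that of Cnn3 by 0.44 at 0.5 kPa and by 0.51 at 12 kPa, with counting half-widths of 0.03. Whether the exact CArG box in the Cnn2 window shown above has a part in this was not tested.

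Cnn1 itself measured 95.04 and 76.1 FPKM in control and 0.795 and 1.32 in shSrf NPCs. Its log2 ratio was below that of Cnn2 by 6.58 at 0.5 kPa and 5.61 at 12 kPa. Cnn1 was 7.05% and 5.72% of the calponin sum in control NPCs and 0.0944% and 0.151% in shSrf NPCs. The calponin sum in shSrf NPCs was 62.4% and 65.5% of control, and the sum of Cnn2 and Cnn3 alone went from 1254 in both control libraries to 841 and 870. Cnn3 was the larger share in every library (56.4% and 57.9% in control, 53.2% and 52.8% in shSrf), and the share of Cnn2 was 36.6% and 36.4% in control and 46.7% and 47.1% in shSrf NPCs.

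Of the 3 families, the transgelins had the largest difference in summed FPKM between shSrf and control NPCs, relative to control. Tagln2 (SM22 beta), on chromosome 1 from 172500246 to 172507375, measured 251 and 182 FPKM in control and 78.2 and 90.7 in shSrf NPCs on 0.5 and 12 kPa. Both shSrf libraries were below both control libraries, and the log2 ratio to control was -1.68 at 0.5 kPa and -1.01 at 12 kPa, with counting half-widths of 0.06. Only 0.658% and 2.18% of all genes had a lower ratio.

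Tagln3, on chromosome 16 from 45711230 to 45724531, measured 4.03 and 3.07 FPKM in control and 1.495 and 1.56 in shSrf NPCs. These values rest on an estimated 122, 77, 70 and 101 reads. The log2 ratios of -1.43 and -0.98 carry counting half-widths of 0.42 and 0.43, and both intervals lie below 0. The summed level of 8 neuron markers (4 above the minimum, with Rbfox3 at 0 in all libraries) went the other way from Tagln3, at 57.1 and 60.5 FPKM in control and 123 and 118 FPKM in shSrf NPCs, mostly from Stmn2 and Map2. Of the others above the minimum, Snap25 had log2 ratios of -0.52 and -0.60 and Tubb3 of 0.02 and 0.58, and the part of these markers in the result was not tested.

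The smooth muscle paralog Tagln went from 298 and 242 FPKM to 16.9 and 32.6. Its log2 ratio was below that of Tagln2 by 2.45 at 0.5 kPa and 1.89 at 12 kPa, many times the counting half-widths of 0.11 and 0.09. The transgelin family was therefore the one that shrank most, to 17.5% and 29.2% of the control sum (553 and 427 FPKM in control, 96.6 and 125 in shSrf). Tagln2 held a larger share at a lower level, going from 45.4% and 42.6% of this sum to 80.9% and 72.6%, as Tagln went from 53.8% and 56.7% to 17.5% and 26.1%. Tagln3 was at most 1.55%. Smooth muscle markers other than these paralogs (7 genes, 3 above the minimum) summed to 68.7 and 70.7 FPKM in control and 42.5 and 51.7 in shSrf NPCs, mostly from Smtn. Log2 ratios to control at 0.5 and 12 kPa were -0.44 and -0.22 for Smtn, -0.76 and -0.22 for Des and -0.33 and 0.02 for Synpo2. Below the minimum, they were -3.66 and -4.75 for Actg2, -2.32 and -2.59 for Lmod1 and -2.25 and -2.26 for Myh11. Myocd was at or near 0 in all libraries. The part of these markers in the results was not tested.

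For each of the 7 genes but Tpm3, both stiffness ratios were closer to 0 than both knockdown ratios. In control NPCs, 2 of the 7 genes were lower on 12 than on 0.5 kPa by more than 1.1-fold, the threshold of the methods of the study, and these were Tpm1 and Tagln2. None was higher, where 16.9% of all genes were lower and 17.9% higher. In shSrf NPCs 1 of the 7 (Tpm3) was lower and 1 (Tagln2) was higher, against 13% and 17.6% of all genes. Counts of 0 to 2 among 7 genes are near these shares and are no result about the members. The median log2 ratio of the 7 was -0.09 in control and 0.06 in shSrf NPCs. Between the 5th and 95th percentile, all genes ranged from -0.30 to 0.32 in control and from -0.22 to 0.29 in shSrf NPCs.

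Among the 8 genes, Tagln2 had the largest stiffness ratio in control NPCs, and it went in opposite directions in control and shSrf NPCs. In control NPCs it was lower on 12 kPa (182 against 251 FPKM, log2 ratio -0.46), where 1.83% of all genes had a lower ratio. In shSrf NPCs it was higher on 12 kPa (90.7 against 78.2 FPKM, log2 ratio 0.21). The control ratio minus the shSrf ratio was -0.68, with a counting half-width of 0.08, and 1.19% of all genes had a lower difference. Being lower past 1.1-fold in control and higher past 1.1-fold in shSrf NPCs was found for 3.52% of all genes and for 1 of the 7.

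The smooth muscle paralogs had the same pair of directions and larger differences. For Tagln the stiffness ratio was -0.30 in control and 0.94 in shSrf NPCs on the log2 scale, and for Cnn1 it was -0.32 and 0.73, whose shSrf values are near 1 FPKM. By quantitative PCR, the paper reports that Srf targets acting through Mkl1, Acta2 among them, rose with stiffness in NPCs. The control values here go the other way for Tagln and Cnn1, and this difference from the paper was not tested. As a family, the transgelin sum on 12 kPa was 77.3% of that on 0.5 kPa in control NPCs and 129% in shSrf NPCs. Tagln3 had ratios of -0.39 and 0.06, both with counting intervals that reach 0.

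Tpm1 and Tpm3 differed from each other with stiffness. Tpm1 was lower on 12 kPa in control NPCs (log2 ratio -0.18), and its ratio in shSrf NPCs was 0.09, within 1.1-fold. Tpm3 had -0.09 in control NPCs, within 1.1-fold, and was lower on 12 kPa in shSrf NPCs (-0.34), where 1.67% of all genes had a lower ratio. The control ratio minus the shSrf ratio was thus -0.27 for Tpm1 and 0.25 for Tpm3, each with a counting half-width of 0.03. Of all genes, 11.0% had a lower difference than Tpm1 and 90.0% had a lower difference than Tpm3. Tpm2, Tpm4, Cnn2 and Cnn3 stayed within 1.1-fold in control and in shSrf NPCs, with log2 ratios between -0.12 and 0.10. With 1 library a condition, none of these differences between control and shSrf NPCs was tested.

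**Figure D4:**
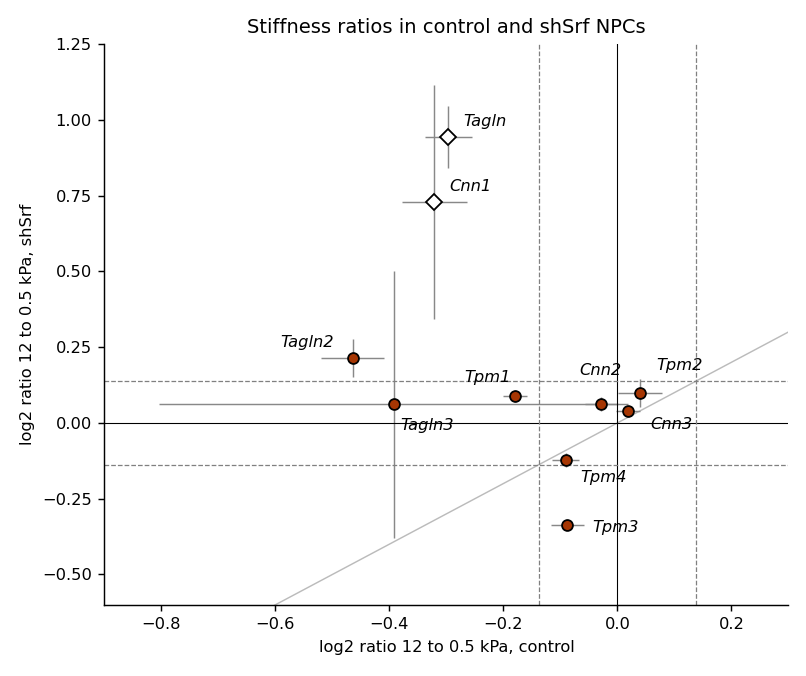
The log2 ratio of FPKM on 12 to 0.5 kPa in control (x axis) and in shSrf NPCs (y axis) for the 8 genes (filled circles) and for Cnn1 and Tagln (open diamonds), with 95% counting bars, dashed lines at 1.1-fold and the diagonal of equal ratios. Tagln2 lies at -0.46 and 0.21, on the same side as Tagln and Cnn1, Tpm3 lies at -0.09 and -0.34, and Tpm2, Tpm4, Cnn2 and Cnn3 lie near the centre.

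Proteins that act with tropomyosins and calponins were mixed. Of 8 tropomyosin-binding and pointed-end proteins, only Tmod3 and Cald1 were above the minimum. Cald1 (caldesmon, an actin-binding inhibitor of myosin) measured 355 and 368 FPKM in control and 240 and 230 in shSrf NPCs, with log2 ratios of -0.57 and -0.68, and only the latter was past 1.5-fold. Tmod3, which caps tropomyosin-coated pointed ends, had 43.2, 41.9, 40.3 and 45.8 FPKM in control on 0.5 and 12 kPa and in shSrf on 0.5 and 12 kPa. Caldesmon was thus below control in both shSrf libraries, as Tpm2 and Tpm4 were, while Tmod3 was inside 1.5-fold at both stiffnesses. Of 8 subunits of troponin, the calcium-sensing complex that uses tropomyosin in striated muscle, 2 (Tnnt2 and Tnni3) were above the minimum. Neither was past 1.5-fold. Tnnt3 (5.09 and 6.02 FPKM in control, 1.01 and 1.04 in shSrf) and, of the list before, Lmod1 (3.33 and 3.67 in control, 0.669 and 0.608 in shSrf) were left out of the counts through their shSrf libraries.

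Of 9 myosin II chains and their kinase, 7 were above the minimum, 2 were lower past 1.5-fold at both stiffnesses (6.17% of all genes were) and none was higher. These were Myl9, a regulatory light chain (346 and 382 FPKM in control, 25.1 and 33.7 in shSrf), and Myh9, a non-muscle heavy chain (log2 ratios -0.95 and -0.70). The related light chain Myl12b was 142 and 169 FPKM in control and 204 and 216 FPKM in shSrf NPCs, inside 1.5-fold (log2 ratios 0.52 and 0.35). Myl6 and Myl12a, the most abundant light chains of the list, stood between 705 and 1078 FPKM in all libraries and inside 1.5-fold. Myh10, another non-muscle heavy chain, was more abundant than Myh9 and went the other way, inside 1.5-fold (log2 ratios 0.21 and 0.20). It measured 93.7 and 109 FPKM in control and 109 and 125 in shSrf NPCs. Myh9 measured 23.3 and 22.8 FPKM in control and 12.0 and 14.1 in shSrf NPCs. The median log2 ratio of the 7 myosin genes was -0.18 and -0.30.

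A further 16 genes encode proteins with a single calponin homology domain outside the calponin and transgelin families, such as the Vav exchange factors and the Iqgap scaffolds. Of these, 12 were above the minimum, 1 was lower past 1.5-fold at 0.5 kPa (Vav3, log2 ratio -1.78), 2 at 12 kPa (Vav3, -1.64, and Iqgap2, -0.68) and none was higher. With 9.28% and 8.88% of all genes lower by as much, these counts are near the background. Their median log2 ratio was 0.01 and -0.04, close to that of all genes.

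Genes whose levels went most like those of a member over the 4 libraries were sought for the members that spanned more than 1 log2 unit, by the Euclidean distance between log2 FPKM values centred on their mean. For Tpm2 these were Npm3 (distance 0.0274), Emb (0.0387) and Ly75 (0.0410). For Tagln2 they were Adcy7 (0.0951), Dbndd2 (0.149) and Trp53i11 (0.155), and for Tagln3 they were Arhgap22 (0.0540), Lrrfip1 (0.115) and Gpc1 (0.128). The ratios of Tagln3 to control carry counting half-widths of 0.42 and 0.43, larger than these distances, so its nearest genes are not resolved from counting error. Tpm2 therefore had nearer neighbours than Tagln2, and 37 genes lay within 0.2 of Tpm2 against 6 for Tagln2. With 4 libraries, such likeness describes the libraries only.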

How the data were processed

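RNA from 4 cultures, 1 for each condition, was sequenced as stranded mRNA libraries with single-end reads. The authors trimmed reads with cutadapt 1.9.1, mapped them to mm10 with TopHat2 2.1.0 and Bowtie2 2.2.8, kept those of high mapping quality and computed 1 value per gene with Cufflinks 2.2.1 (versions from the processing notes of the submitters). The deposited values are FPKM, which the methods call RPKM, and were used without rescaling or pseudocount. Of 21997 rows, the 135 rows of 63 repeated symbols were left out. The minimum of 2 FPKM in every library and the 1.1-fold threshold for stiffness follow the methods, and 1.5-fold was used for knockdown.

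Depth was estimated from the value of 1 read in genes below 0.1 FPKM, as 29100000, 24100000, 45000000 and 62300000 reads for control on 0.5 and 12 kPa and shSrf on 0.5 and 12 kPa. Estimated reads and 95% half-widths rest on GENCODE M1 lengths, found for 91.2% of the included genes, are approximate for genes with many transcripts, and cover counting error only.

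The genes described and the other lists were chosen with earlier results of these data known. Named were all members, Cnn1, Tagln, Srf, up to 4 of the most abundant genes of a list and the 3 nearest genes of a member that spanned more than 1 log2 unit. Myh9, Myh10 and Vav3 were named after their values were seen. The level of 1 neural progenitor marker is not reported here. Coordinates and promoter windows are those of RefSeq for GRCm38.p6. Alternatives were other minimum values and thresholds, a pseudocount of 1, other scalings, centring in 50 bins of GC content and shares weighted by transcript length. Calculations were tested on simulated data, with Python 3.11.15, numpy 2.4.6, pandas 2.3.3 and matplotlib 3.10.9.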

Additional observations from a re-analysis of the deposited data

Results flagged for a closer look

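The ratio of 12 to 0.5 kPa went in opposite directions past 1.1-fold in control and shSrf NPCs for 5 of the listed genes above the minimum and for Cnn1. Other listed genes below the minimum were not considered. Each direction rests on 1 library a condition, so the difference was not tested. The log2 ratio in control minus that in shSrf NPCs was -0.68 for Tagln2, -1.24 for Tagln and -1.05 for Cnn1, each lower on 12 kPa in control and higher in shSrf NPCs. The same held for the neuron marker Tubb3 (-0.55) and the smooth muscle marker Des (-0.54), both at a few FPKM. Iqgap2, which has a calponin homology domain, went the other way, with a difference of 0.39. Of all 10489 genes, 369 (3.52%) were lower on 12 kPa in control and higher in shSrf NPCs, and 261 (2.49%) were higher in control and lower in shSrf NPCs. The count of 5 was not set against these shares and is no result about the listed genes.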

How the results depend on the processing

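The fold threshold set most of the counts. On 12 against 0.5 kPa, the members lower in control NPCs were 1 at 1.2-fold and 0 at 1.5-fold (6.72% and 0.963% of all genes). Those lower in shSrf NPCs were 0 at 1.5-fold (0.324% of all genes). Those higher in shSrf NPCs were 0 at 1.2-fold and at 1.5-fold (5.99% and 0.458% of all genes). In shSrf against control NPCs, 2 members were lower at 2-fold at either stiffness, beside 2.86% of all genes at 0.5 kPa and 2.22% at 12 kPa. At 0.5 kPa, 1 member (Tpm3) was higher at 1.1-fold and at 1.2-fold. Of all genes 37.4% and 26.5% were higher by as much, so that this count is no result about the members. Scaling to Gapdh, after which the median of all genes was -0.103 at 0.5 kPa and -0.0996 at 12 kPa, gave the 7 members a median of -0.89 and -0.85, and centring by GC content gave -0.71 and -0.65. Of 160 recomputed single ratios, no call was lost, 1 was gained (Tpm1 at 12 kPa scaled to Gapdh, -0.62) and 1 changed sign without a call (Tpm3 at 12 kPa scaled to Gapdh, -0.07). The median difference between the stiffness ratios was -0.06 and became -0.0234 with GC centring. Weighted by transcript length, and in the order control on 0.5 and 12 kPa and shSrf on 0.5 and 12 kPa, the share of Tpm3 was 19.8%, 20.1%, 35.3% and 30%, that of Cnn1 8.71%, 7.09%, 0.12% and 0.193%, and that of Tagln 61.6%, 64.3%, 22.6% and 32.7%. No paired analysis was possible because every condition is a single library, so none could be left out either. Depth limits Tagln3 and, in shSrf NPCs, Cnn1, and leaves the other genes limited by the missing replicates.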
